A study of Mus musculus with 6 samples.

Results

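The genes described here code for proteins that hold intestinal epithelial cells to each other and to their basement membrane, or that build and move along the cytoskeleton. They were taken by symbol from the table deposited for small intestinal organoids, as the rows that begin with Krt, Cdh, Pcdh, Cldn, Itga, Itgb, Lama, Lamb, Lamc, Col, Myo, Myh, Act, Tuba, Tubb, Kif, Plek, Spt, Tjp, Ank or Dst, and 30 of the 1420 listed genes matched. The prefixes fit 522 protein-coding symbols of the mouse annotation, so that 5.75% of them were listed, against 6.08% of all protein-coding symbols. The name did not suit every row. Ank codes for a membrane protein of pyrophosphate transport and Sptlc2 for a subunit of serine palmitoyltransferase, so these 2 genes share only the letters, and the 4 other genes beginning with Ank code for ankyrin-repeat proteins and not for ankyrins.

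The libraries came from organoids of C57BL/6 mice, 3 of wild type (WT) and 3 of Smarcad1 knockout (KO), which the submitters describe as biological triplicates. Organoids are closed epithelial structures that grow from crypts, here in Matrigel, a basement membrane gel, with EGF, Noggin and R-spondin in the medium, so that matrix is supplied from outside and connective tissue should be lacking. The genotype label gives a deletion by Vil-Cre, which is active in intestinal epithelium, while the growth protocol and the methods of the study give ZP3-Cre, which acts in the oocyte and deletes the gene in every cell, with littermates as controls. The labels give neither the age of the mice nor the number of mice behind a library. Values are RPM, the reads of a gene scaled to the depth of its library, and depth ranged from 1.24e+07 to 1.57e+07 reads. Smarcad1 itself was measured at 105, 94.7 and 96.3 RPM in WT and at 21.7, 21.3 and 24.03 RPM in KO (log2 change -2.14, limma adjusted p = 5.59e-05), so that the targeted gene moved as labelled. Of the marker genes fixed for the cell types of the epithelium, 7 listed Paneth cell markers summed to 9017 to 10513 RPM in WT and 19262 to 27970.4 RPM in KO, 3 goblet cell markers to 1749 to 1995 RPM and 2754 to 5054 RPM, and 6 enterocyte markers to 10136 to 11855 RPM and 5975 to 6397 RPM. The 2 listed enteroendocrine markers summed to 182 to 222 RPM and 305 to 402 RPM, and single markers of tuft cells, Dclk1, and stem cells, Rgmb, had log2 changes of -0.90 and 0.39. With a trend of each library with transcript length removed, 4 of the 7 Paneth, 2 of the 3 goblet, both enteroendocrine and 0 of the 6 enterocyte marker calls were lost. That trend was fitted to the listed genes alone, so its removal can also take out a difference between the groups that short genes share. In bulk RNA a change in the number of cells of a type and a change in RNA per cell cannot be told apart. Markers of mesenchyme (0 of 9), smooth muscle (0 of 5), endothelium (0 of 4), immune cells (0 of 5), nerve and glia (0 of 4) and proliferation (0 of 6) were not in the table, so their levels were not analysed here.

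Epithelial cells rest on a basement membrane of laminins, trimers of an alpha, a beta and a gamma chain, which they bind through integrins and hemidesmosomes. Keratin filaments run through the cytoplasm to these contacts and to desmosomes, claudins seal the tight junctions, and actin carries the microvilli of the brush border. Microtubules and their kinesin motors carry vesicles, build cilia and part the chromosomes in mitosis. The comparison asks which of these genes differ between organoids without Smarcad1, a chromatin remodelling enzyme, and their controls, grown apart from microbes and the immune system.

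The laminin chains Lama3, Lamb1 and Lamb2, all 3 listed keratins and both listed claudins were higher in KO, whereas the kinesins Kif4 and Kif14, the tubulin Tubb2b, the plakin Dst and all 4 ankyrin-repeat genes were lower. Of these, Krt18, Krt23, Cldn4 and Cldn8 lost their calls once a trend with transcript length was removed. Dst and Ankrd13a lost theirs with the replicate number as a block, and also when any library other than KO replicate 3 was left out. Both kept their calls with the length trend removed. The table holds only genes that the authors had already selected for a difference between the same libraries, so a limma adjusted p-value under 0.05 in 30 of 30 members (99.9% of the whole list) and KO values that all lie beyond the WT values in 30 of 30 members (98.5% of the list) carry no news about them. Directions were even, with 15 members called higher (52.5% of the list) and 15 called lower (47.4% of the list). A log2 change of at least 1 in size was reached by 6 higher members (Krt4, Kif27, Plekha4, Lama3, Acta1 and Lamb2), where 19.0% of the list did so, and by 4 lower members (Plek, Tubb2b, Itgam and Cdh24), where 8.10% did. Without KO replicate 1, Itgam and Cdh24 were at -0.87 and -0.88, which left 2 such falls. Regardless of sign, the median log2 change was 0.68 for the members and 0.64 for the list. Log2 changes are KO minus WT on log2(RPM + 0.1), which understates the change of low genes, and single genes also had an exact permutation p of 0.1, the smallest that 3 against 3 libraries allow.

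**Figure D1:**
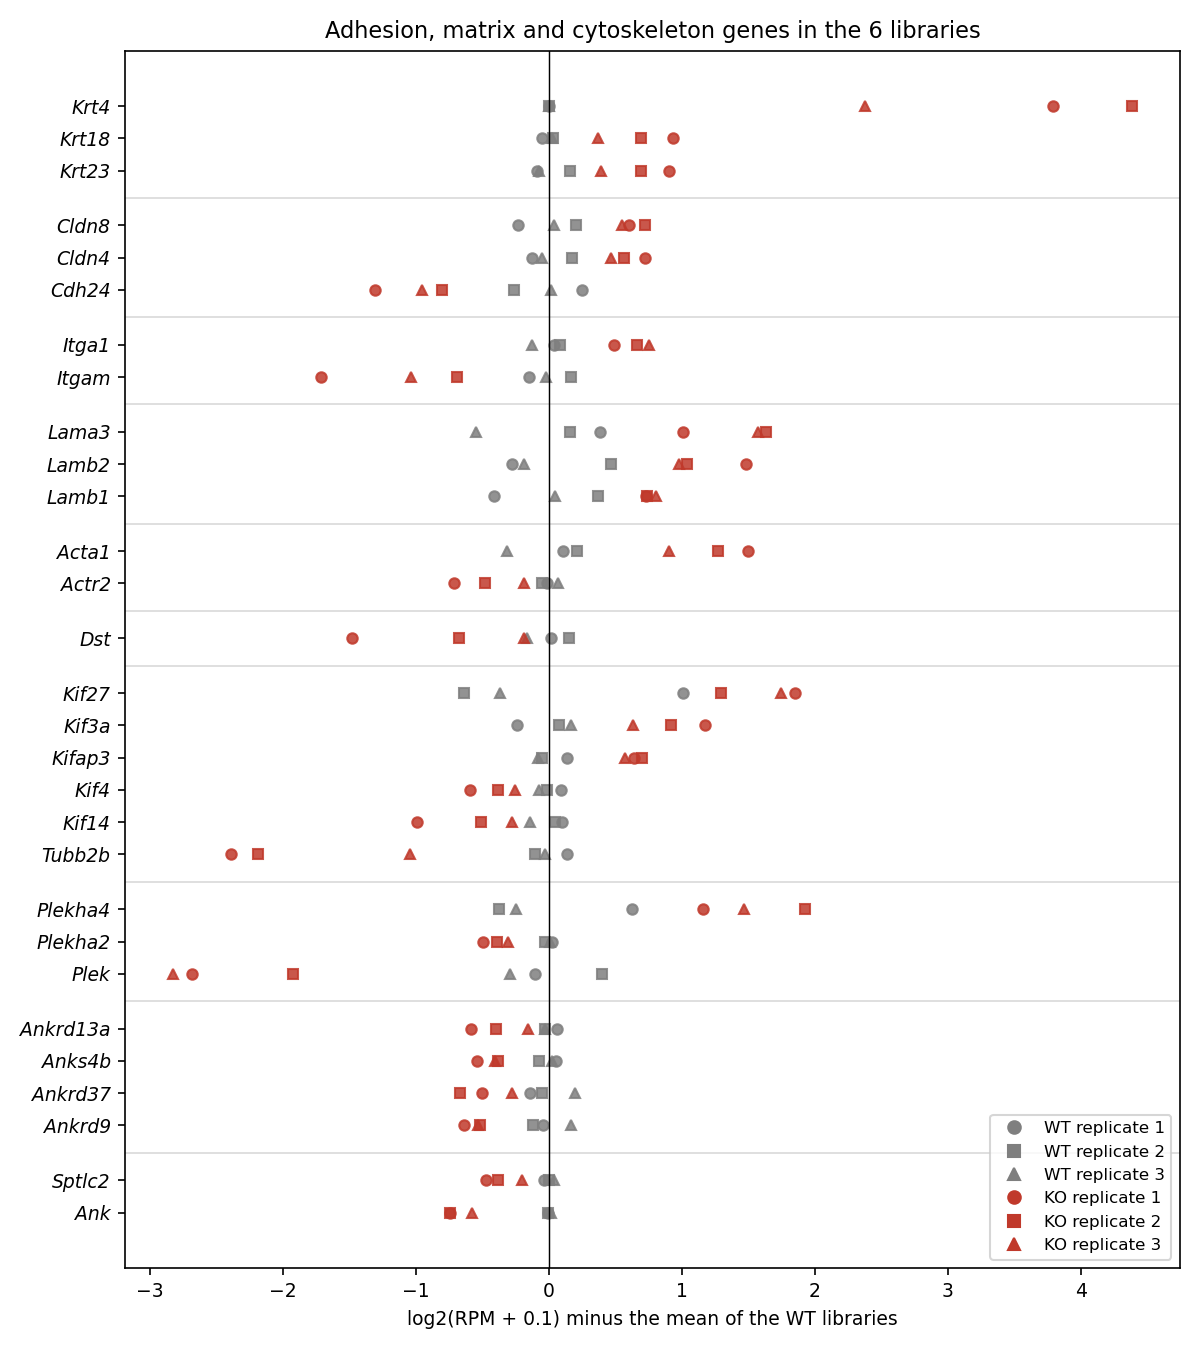
Each row is a gene and each point a library, placed by log2(RPM + 0.1) minus the mean of the 3 WT libraries, with WT in grey, KO in red and the marker shape giving the replicate. KO points lie on one side of the WT points in every row, to the right for laminins, keratins and claudins and to the left for ankyrin-repeat genes.

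The laminin chains described here were higher in KO. Lama3, an alpha chain of the laminin that anchors epithelia, lies on chromosome 18 from 12333819 to 12583013 (GRCm38) and was measured at 4.197, 3.58 and 2.15 RPM in WT and 6.52, 10.1 and 9.67 RPM in KO. The means were 3.31 ± 1.05 and 8.76 ± 1.95 RPM (SD, n = 3 each), a 2.65-fold difference with a log2 change of 1.40 (standard error 0.28, limma adjusted p = 0.00542). These values rest on 33 to 56 reads per WT library and 81 to 147 reads per KO library, as inferred from the step between values. A gene on the other strand overlaps exons of Lama3, and whether the counting used the strand is not stated.

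The beta chains moved the same way. Lamb2, the beta chain of muscle, nerve and kidney basement membranes, on chromosome 9 from 108479736 to 108490530, was at 6.37, 10.7 and 6.79 RPM in WT and at 21.8, 15.99 and 15.3 RPM in KO, with a log2 change of 1.17 (limma adjusted p = 0.00563). Lamb1, the broadly used beta chain of embryonic and adult basement membranes, on chromosome 12 from 31265234 to 31329644, was at 8.24, 14.2 and 11.4 RPM in WT and at 18.4, 18.5 and 19.3 RPM in KO, with a log2 change of 0.76 (limma adjusted p = 0.0114). Its KO libraries were close to each other, whereas WT replicate 2 came nearest to them. Per kilobase of merged exons, the scale on which genes can be compared, Lamb2 stood at 2.91 ± 0.586 RPM per kb in KO, Lamb1 at 1.89 ± 0.0504 and Lama3 at 0.815 ± 0.182 (SD, n = 3 each), so that Lamb2 led and Lama3 was lowest. In WT the order was the same, with Lamb2 at 1.31 ± 0.395 and Lamb1 at 1.14 ± 0.303 RPM per kb not apart beyond their spread. The merged exons of these genes are long, from 6082 bp in Lamb2 to 10745 bp in Lama3.

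Start regions of the beta chains are shown because both genes rose and the table of promoters holds them. Both windows run from 250 bases before to 50 bases after the RefSeq start in GRCm38.p6, 5′ to 3′, Lamb1 at chr12:31265043-31265342 and Lamb2 at chr9:108479612-108479911, each on the plus strand. Capitals mark the GC box GGGCGG on either strand, known as a binding motif of the Sp and Klf family.
Lamb1: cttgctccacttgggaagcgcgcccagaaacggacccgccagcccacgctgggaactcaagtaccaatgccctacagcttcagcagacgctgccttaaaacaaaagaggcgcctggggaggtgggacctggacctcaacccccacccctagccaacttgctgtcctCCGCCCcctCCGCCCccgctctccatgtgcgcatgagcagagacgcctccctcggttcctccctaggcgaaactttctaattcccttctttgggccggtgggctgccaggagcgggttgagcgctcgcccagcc
Lamb2: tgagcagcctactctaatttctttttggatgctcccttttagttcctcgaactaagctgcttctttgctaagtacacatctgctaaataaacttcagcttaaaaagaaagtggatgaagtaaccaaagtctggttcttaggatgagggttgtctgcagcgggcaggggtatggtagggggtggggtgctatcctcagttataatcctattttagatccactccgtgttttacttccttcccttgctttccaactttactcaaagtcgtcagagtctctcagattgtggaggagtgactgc
Lamb1 held this motif at 75 and 84 bases upstream and Lamb2 held none, where 35.7% of all 32851 windows held it. Of the 30 members, 24 matched the promoter table by symbol, and 16 of these held the GC box in at least 1 of their windows, as did 38.2% of all 27025 genes counted in the same way.

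Integrins, the receptors that bind matrix, split by direction. Itga1, the alpha chain of a collagen and laminin receptor, on chromosome 13 from 114953096 to 115101964, was at 32.02, 33.1 and 28.5 RPM in WT and at 43.9, 49.3 and 52.6 RPM in KO, with a log2 change of 0.64 (limma adjusted p = 0.00417). Itgam, the alpha chain of a receptor of myeloid cells, on chromosome 7 from 128062640 to 128128160, was at 8.55, 10.7 and 9.33 RPM in WT and at 2.82, 5.83 and 4.55 RPM in KO, with a log2 change of -1.15 (limma adjusted p = 0.00755). Both are overlapped on their own strand by exons of a predicted gene, which leaves the source of some reads open to doubt. Of the focal adhesion and integrin linkage list, 1 of 24 genes was in the table, Tns4, which binds integrin tails, and it was higher in KO (log2 change 0.46, limma adjusted p = 0.0148). In the list of other matrix genes 4 of 20 were present, 3 higher and 1 lower in KO. The protease genes Mmp7, a Paneth cell product, and Mmp15 had log2 changes of 1.06 and 0.46, and Timp2, a protease inhibitor, of 1.12. With a trend of transcript length removed, that of Mmp7 was 0.37. Emid1, which codes for a secreted protein with collagen repeats, fell from 55.4 ± 9.61 to 10.3 ± 2.72 RPM (SD, n = 3 each), with a log2 change of -2.43 (limma adjusted p = 0.000602).

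Krt18 was by far the most abundant member. This type I keratin of simple epithelia, on chromosome 15 from 102028216 to 102032026, was measured at 975, 1029 and 1025 RPM in WT and at 1923, 1628 and 1303 RPM in KO. The means were 1009.6 ± 30.1 and 1618 ± 310.0 RPM (SD, n = 3 each), a 1.602-fold difference with a log2 change of 0.66 (standard error 0.15, limma adjusted p = 0.00825). Its coefficient of variation was 2.98% in WT and 19.2% in KO, with KO replicate 1 highest and KO replicate 3 nearest to WT. Krt23, a further type I keratin, on chromosome 11 from 99477974 to 99493137, was at 70.3, 83.3 and 70.9 RPM in WT and at 139, 121 and 97.7 RPM in KO, with a log2 change of 0.66 (limma adjusted p = 0.0087). It followed the same order among the KO libraries. Krt4, a keratin of stratified epithelia such as the oesophagus, on chromosome 15 from 101918536 to 101924735, had 0 reads in each WT library and 16, 29 and 6 reads in the KO libraries, or 1.29, 1.99 and 0.4204 RPM. Set against a floor of 3 reads per WT library, its KO mean was at least 5.96-fold higher (limma adjusted p = 0.00179). Per kilobase of merged exons Krt18 stood at 1126 ± 216 RPM per kb in KO, Krt23 at 76.2 ± 13.3 and Krt4 at 0.578 ± 0.369 (SD, n = 3 each). Of the desmosome list, to which keratins attach, 1 of 11 genes was in the table, Pkp1, and it was lower in KO (log2 change -0.44, limma adjusted p = 0.0208).

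Tight junction genes were represented by claudins alone. Cldn4, a barrier claudin of epithelia, is a gene of a single exon on chromosome 5 from 134945119 to 134946934 and was measured at 228, 281 and 241 RPM in WT and at 411, 369 and 344 RPM in KO. The means were 250.2 ± 27.8 and 375 ± 34.1 RPM (SD, n = 3 each), with a log2 change of 0.58 (standard error 0.13, limma adjusted p = 0.00656). Cldn8, a claudin known from distal colon and kidney, on chromosome 16 from 88560828 to 88563183, was at 11.04, 14.9 and 13.3 RPM in WT and at 19.8, 21.5 and 19.1 RPM in KO, with a log2 change of 0.62 (limma adjusted p = 0.00687). Each was thus about as much higher as Krt18, at 1.497-fold and 1.54-fold. Cdh24, a type II cadherin of adherens contacts, on chromosome 14 from 54631992 to 54641364, went the other way, from 7.07, 4.92 and 6.005 RPM in WT to 2.33, 3.36 and 3.01 RPM in KO, with a log2 change of -1.02 (limma adjusted p = 0.00414). None of the 24 other adherens and tight junction genes fixed for comparison was in the table (0 of 24).

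The start region of Cldn4 is shown because it holds a motif that few windows hold. It lies at chr5:134946885-134947184 on the minus strand (GRCm38.p6, RefSeq) and is written 5′ to 3′, with capitals for TGANTCA, the AP-1 motif.
Cldn4: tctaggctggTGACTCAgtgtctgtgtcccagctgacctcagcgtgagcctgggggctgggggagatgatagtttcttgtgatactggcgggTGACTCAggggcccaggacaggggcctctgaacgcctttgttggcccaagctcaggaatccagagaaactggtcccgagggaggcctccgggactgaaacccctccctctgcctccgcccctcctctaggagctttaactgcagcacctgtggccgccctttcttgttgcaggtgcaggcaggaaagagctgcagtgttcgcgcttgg
The motif occurred at 240 and 158 bases upstream of the start, and 7.81% of all windows of this length held it. Among the 24 members with a window, 2 held it in at least 1 window, Cldn4 and Plekha4, and 8.97% of all genes did.

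**Figure D2:**
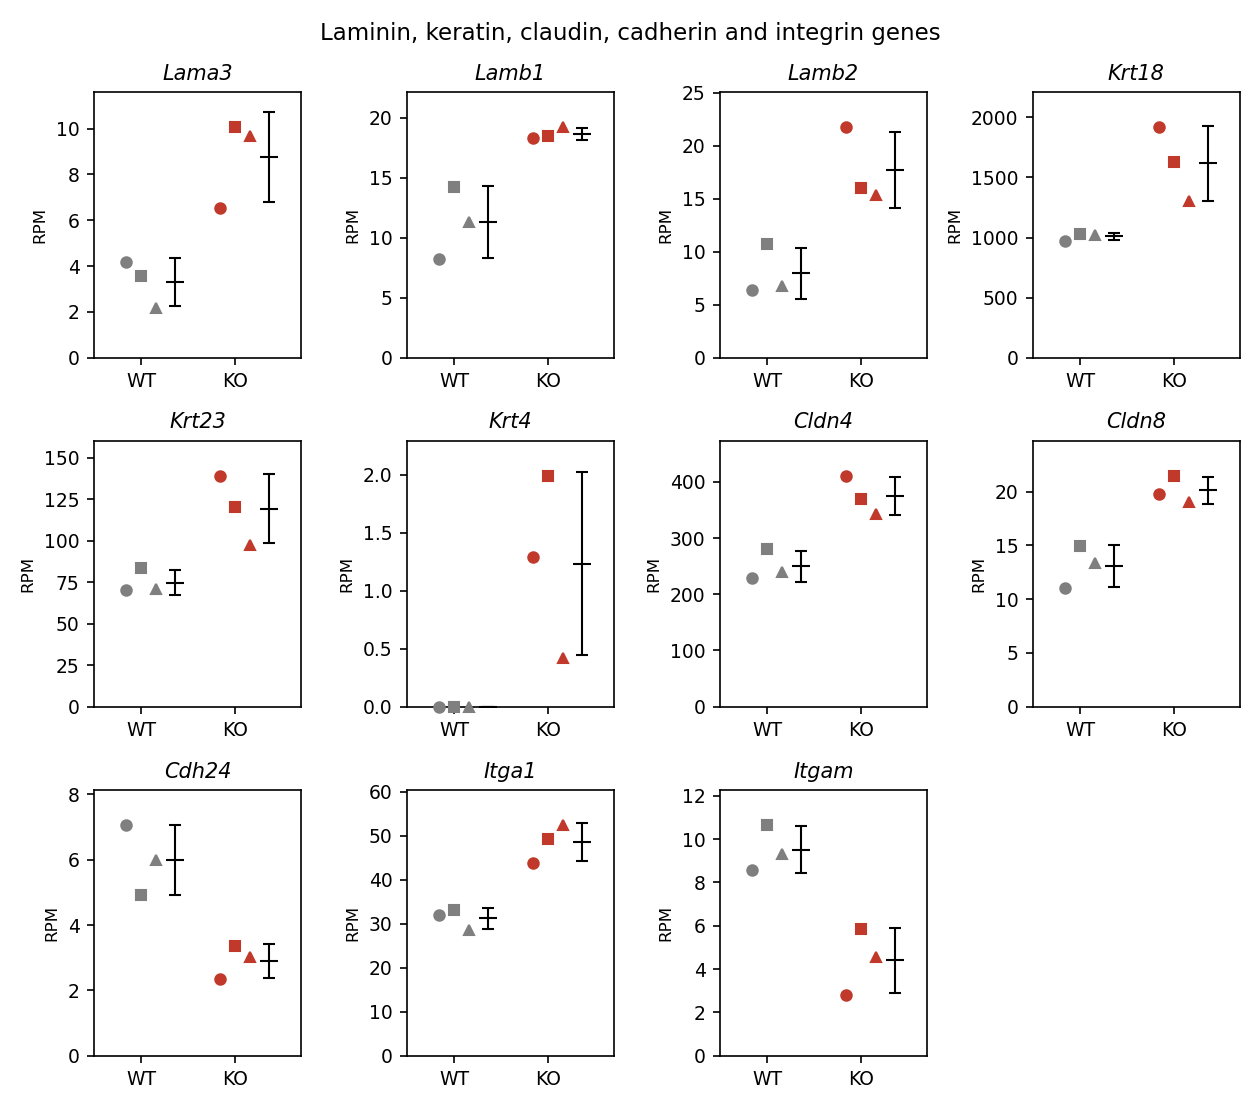
RPM of 11 adhesion, matrix and keratin genes in each library (circle, square and triangle for replicates 1 to 3), with the mean and SD of each group as a bar beside the points and the axis starting at 0. Laminins, keratins, claudins and Itga1 are higher in each KO library, Cdh24 and Itgam lower, and Krt4 sits at 0 in the 3 WT libraries.

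The higher keratins and claudins have short transcripts, and short transcripts differed among the KO libraries. Among members with merged exons under 2500 bp, 6 of 8 were higher in KO, and in the whole list 68.3% of such genes were. For longer transcripts the numbers were 9 of 22 members and 47.2% of the list. The log2 ratio of KO replicate 1 to KO replicate 3 ran against merged exon length with a rank correlation (Spearman) of -0.51 across the 30 members and of -0.46 across 1396 listed genes, which share the same libraries and are no replicates. When a curve of each library against length was removed, the log2 changes became 0.05 for Krt18, 0.08 for Krt23, 0.05 for Cldn4 and 0.23 for Cldn8, with limma adjusted p-values of 0.606, 0.535, 0.679 and 0.149, so that these 4 calls were lost. The curve was fitted to the 1396 listed genes, all selected for a difference between WT and KO. Its removal can therefore also take out a difference between the groups that genes of like length share. Krt4, also short, kept its call at 3.07 (limma adjusted p = 0.00153), though it had 0 reads in each WT library. Lama3, Lamb2 and Lamb1 kept theirs as well, with log2 changes of 1.52 for Lama3, 1.17 for Lamb2 and 0.87 for Lamb1. Tubb2b and Ankrd37, short but lower in KO, moved further down, to -2.29 and -1.07. The sum of the 3 goblet markers was 5054 RPM in KO replicate 1 and 2754 RPM in KO replicate 3, the order seen in Krt18, and Tff3 and Spink4 among them lost their calls in the same way (limma adjusted p = 0.228 and 0.158). The remaining goblet marker, Muc2, had the opposite order, at 563, 578 and 594 RPM in KO replicates 1 to 3. It kept its call with the length trend removed (log2 change 0.64, limma adjusted p = 0.00235). The part of transcript length or of secretory cells in the keratin and claudin values was not tested.

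**Figure D3:**
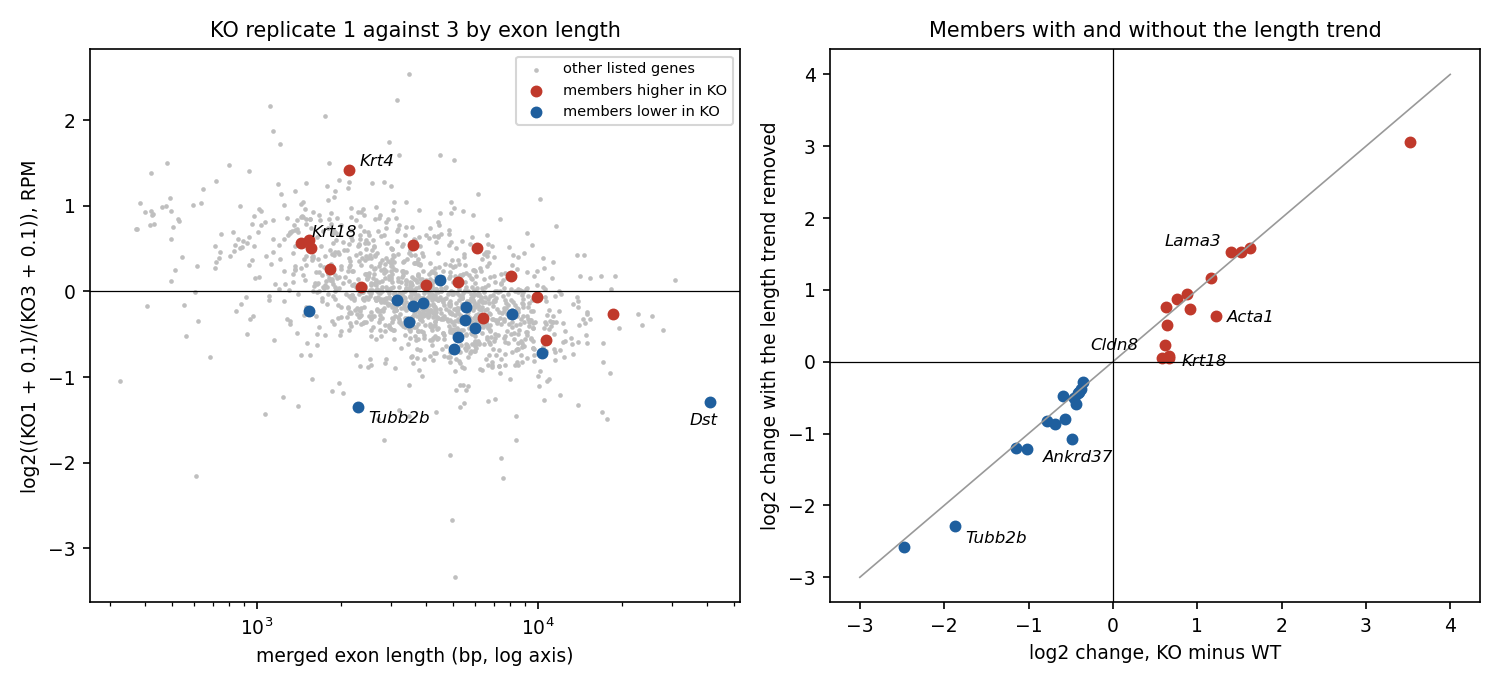
Left, the log2 ratio of KO replicate 1 to KO replicate 3 (RPM + 0.1) against merged exon length on a log axis, with other listed genes in grey, members higher in KO in red and members lower in KO in blue. Right, the log2 change of each member as measured against the change with the length trend removed, the grey line marking equal values: Krt18, Krt23 and Cldn4 drop to near 0, Cldn8 to 0.23 and Acta1 to 0.64, while Lama3 stays near the line.

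Actin genes went in opposite directions. Acta1, the actin of skeletal muscle thin filaments, on chromosome 8 from 123891769 to 123894751, was measured at 32.9, 35.5 and 24.5 RPM in WT and at 86.7, 73.99 and 57.3 RPM in KO, a 2.35-fold difference with a log2 change of 1.22 (standard error 0.20, limma adjusted p = 0.00323). With the length trend removed it was 0.64 (limma adjusted p = 0.0112). Its coding sequence is nearly the same as that of other actins, so reads that fit several of them were not counted. Actr2, a subunit of the Arp complex that nucleates branched actin, on chromosome 11 from 20062304 to 20112913, was at 549, 533 and 582 RPM in WT and at 337, 397 and 487 RPM in KO, with a log2 change of -0.46 (limma adjusted p = 0.0218). The call for Actr2 was lost when WT replicate 1, WT replicate 3 or KO replicate 2 was left out, with limma adjusted p-values of 0.0557, 0.0644 and 0.062. Of 50 other genes for actin turnover and its motors 6 were in the table, 5 of them higher in KO, and 2 of these calls were lost with the length trend removed. Gsn, which severs filaments, had a log2 change of 0.80, Cttn, a cortical actin binder, of 0.51 and Tmsb4x, which holds actin monomers, of 0.57, though that of Tmsb4x was -0.05 with the length trend removed. Myl9, a myosin light chain, had a log2 change of 0.63 and of -0.03 with the trend removed (limma adjusted p = 0.882). The exception was Coro2a, a coronin, at 644 ± 20.2 RPM in WT and 371 ± 52.9 RPM in KO (SD, n = 3 each), with a log2 change of -0.81 (limma adjusted p = 0.00274).

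For Acta1 the start region holds the classical element of muscle actin genes. It lies at chr8:123894726-123895025 on the minus strand (GRCm38.p6, RefSeq), and capitals mark the CArG box, the motif of serum response factor.
Acta1: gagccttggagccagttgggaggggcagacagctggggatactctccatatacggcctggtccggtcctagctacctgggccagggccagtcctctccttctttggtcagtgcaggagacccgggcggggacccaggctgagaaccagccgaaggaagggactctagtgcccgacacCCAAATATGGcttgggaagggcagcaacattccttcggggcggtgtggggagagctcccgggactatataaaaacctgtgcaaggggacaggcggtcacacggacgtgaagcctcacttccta
The box begins 73 bases upstream of the start. It was found in 1.63% of all windows. Counted by gene, 1 of the 24 members with a window and 1.81% of all genes held it. Whether Srf binds there in organoids was not measured.

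Dst, a giant plakin that ties keratin filaments, actin and microtubules together and sits in hemidesmosomes, was lower in KO, with a coefficient of variation of 42.0% among the KO libraries. It lies on chromosome 1 from 33908225 to 34308661, with merged exons of 41155 bp, and was at 126, 139 and 111 RPM in WT and at 44.8, 78.1 and 109.9 RPM in KO. KO replicate 3 was thus just below the lowest WT library, and KO replicate 1 far below. The log2 change was -0.78 (standard error 0.32, limma adjusted p = 0.0446) and -0.43 without KO replicate 1 (limma adjusted p = 0.0642). The call was also lost without WT replicate 1, 2 or 3 or KO replicate 2, with limma adjusted p-values of 0.0884, 0.117, 0.0663 and 0.076, and with the replicate number as a block (0.054). With the length trend removed the call was kept, at a log2 change of -0.83 (limma adjusted p = 0.00743). Exons of other genes overlap it on the other strand.

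Of the 5 listed genes beginning with Kif, 3 were higher and 2 lower in KO. Kif3a, a motor subunit of the heterotrimeric kinesin that builds cilia, on chromosome 11 from 53567379 to 53601967, was measured at 17.3, 21.5 and 22.9 RPM in WT and at 46.2, 38.8 and 31.8 RPM in KO, with a log2 change of 0.91 (standard error 0.18, limma adjusted p = 0.00489). Kifap3, which codes for the cargo-binding subunit of the same motor and is no motor itself, on chromosome 1 from 163779583 to 163917109, was at 26.3, 23.1 and 22.7 RPM in WT and at 37.5, 38.98 and 35.7 RPM in KO, with a log2 change of 0.64 (limma adjusted p = 0.00314). Both subunits were higher in each KO library, 1.89-fold and 1.55-fold on average. Per kilobase of merged exons they were close, at 5.74 ± 0.8097 and 5.997 ± 0.496 RPM per kb in WT and at 10.9 ± 2.01 and 9.32 ± 0.406 in KO (SD, n = 3 each), within the spread of the libraries. Kif27, a kinesin of motile cilia, on chromosome 13 from 58287502 to 58359122, was at 6.61, 2.04 and 2.48 RPM in WT and at 11.9, 8.099 and 11.1 RPM in KO, with a log2 change of 1.63 (limma adjusted p = 0.0116). WT replicate 1 stood well above the other WT libraries, and without it the log2 change was 2.13 (limma adjusted p = 0.00147). Annotated genes overlap exons of Kif27 on both strands.

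The other two, both known from mitosis, were lower in KO. Kif4, a chromosome-bound kinesin of the spindle midzone, on chromosome X from 100625737 to 100727214, was at 105, 97.5 and 93.5 RPM in WT and at 65.2, 75.6 and 82.3 RPM in KO, with a log2 change of -0.41 (limma adjusted p = 0.0162). Kif14, which acts in cytokinesis, on chromosome 1 from 136466343 to 136531511, was at 44.5, 42.8 and 37.6 RPM in WT and at 20.9, 29.1 and 34.3 RPM in KO, with a log2 change of -0.59 (limma adjusted p = 0.022). In both, KO replicate 3 came nearest to WT. The call was lost for Kif4 without WT replicate 1 (limma adjusted p = 0.0589) and for Kif14 without WT replicate 1 or 2 (0.0644 and 0.0603). Without KO replicate 1 the log2 change of Kif14 was -0.39 (limma adjusted p = 0.0311). Prc1, the midzone partner of Kif4, was among the 3 of 25 other microtubule genes in the table and was lower as well, at 171 ± 9.21 and 127 ± 26.3 RPM (SD, n = 3 each), with a log2 change of -0.44 (limma adjusted p = 0.0307). Map7, which stabilises microtubules, had a log2 change of -0.34 and Stmn1, which takes them apart, of 0.55, or 0.04 with the length trend removed. Kif4 overlaps exons of Pdzd11 on the other strand.

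The start region of Kif4 is shown for motifs known from genes of the cell cycle. It lies at chrX:100625815-100626114 on the plus strand (GRCm38.p6, RefSeq), and capitals mark CCAAT on either strand, the NF-Y motif, and TTTGAA, the cell cycle homology region.
Kif4: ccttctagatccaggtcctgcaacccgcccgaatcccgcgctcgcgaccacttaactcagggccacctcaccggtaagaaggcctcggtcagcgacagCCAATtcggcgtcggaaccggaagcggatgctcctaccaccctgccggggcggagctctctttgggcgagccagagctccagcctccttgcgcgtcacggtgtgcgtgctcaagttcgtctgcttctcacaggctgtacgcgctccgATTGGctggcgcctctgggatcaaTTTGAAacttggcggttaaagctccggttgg
CCAAT began 152 bases upstream on the strand shown and 5 bases upstream on the other strand, and TTTGAA began 19 bases downstream of the start. Of all windows, 37.4% held CCAAT and 17.9% held TTTGAA, and counted by gene 41.1% and 20.2% did. Of the 24 members with a window, 12 held CCAAT and 5 held TTTGAA in at least 1 window.

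Tubb2b, a beta tubulin best known from neurons, on chromosome 13 from 34126748 to 34130466, showed the largest fall among the members with a mean above 1 RPM in both groups. It was measured at 50.98, 43.2 and 45.4 RPM in WT and at 8.77, 10.1 and 22.4 RPM in KO, with means of 46.5 ± 4.03 and 13.8 ± 7.53 RPM (SD, n = 3 each) and a log2 change of -1.87 (standard error 0.34, limma adjusted p = 0.00414). KO replicate 3 was well above the other KO libraries but below each WT library, and without it the log2 change was -2.29 (limma adjusted p = 0.000273). Its close copy Tubb2a shares much of its sequence, so reads that fit both were not counted.

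**Figure D4:**
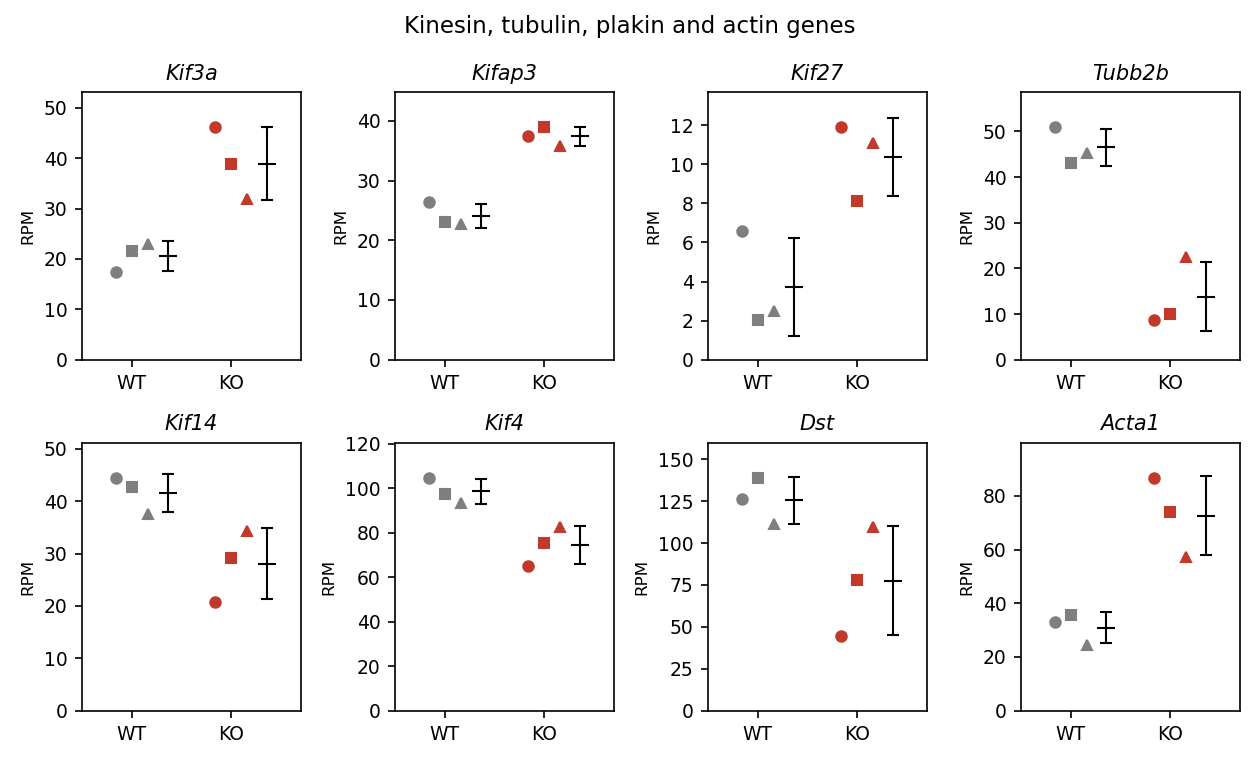
RPM of 8 kinesin, tubulin, plakin and actin genes in each library (circle, square and triangle for replicates 1 to 3), with the mean and SD of each group as a bar and the axis starting at 0. Kif3a, Kifap3, Kif27 and Acta1 are higher in each KO library, Tubb2b, Kif14, Kif4 and Dst lower, and KO replicate 3 lies nearest to WT in every panel but that of Kif27.

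Ankyrin-repeat genes were lower in KO, each by a modest amount. Anks4b, a scaffold of the links between microvilli tips, on chromosome 7 from 120173858 to 120185586, was at 260.1, 239 and 255 RPM in WT and at 173, 192 and 189 RPM in KO, with a log2 change of -0.44 (limma adjusted p = 0.00725). Of the 27 brush border genes of the fixed list 5 were in the table, the other 4 of them higher in KO. Calml4, a light chain in the same tip-link complex, was higher at 639 ± 73.1 RPM in KO against 386 ± 23.1 RPM in WT (SD, n = 3 each), with a log2 change of 0.72 (limma adjusted p = 0.00324). Mep1a and Mep1b, the subunits of the brush border protease meprin, had log2 changes of 0.64 and 0.50 and Tmigd1, a microvillar adhesion protein, of 1.36. With the length trend removed Mep1b lost its call, at 0.17 (limma adjusted p = 0.173), and Tmigd1 was at 0.76 (limma adjusted p = 0.00572). Within that list Anks4b was the single lower gene, but Alpi and Lct, the brush border enzymes alkaline phosphatase and lactase, are held by the enterocyte list and were lower too, with log2 changes of -0.50 and -0.54. The 6 listed enterocyte markers had a median log2 change of -0.65. Whether enterocyte number has a part in the Anks4b value was not tested.

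Ankrd9, a ubiquitin ligase adaptor, on chromosome 12 from 110975353 to 110979040, was at 44.6, 42.4 and 51.6 RPM in WT and at 29.5, 32.1 and 31.7 RPM in KO (log2 change -0.57, limma adjusted p = 0.00537). Ankrd37, known to respond to low oxygen, on chromosome 8 from 45996902 to 46005707, was at 136, 144 and 171 RPM in WT and at 106, 93.96 and 124 RPM in KO (log2 change -0.48, limma adjusted p = 0.0178). The WT and KO values of Ankrd37 came close, and its call was lost without WT replicate 3 or KO replicate 2 (0.0566 and 0.0624). Ankrd13a, a ubiquitin-binding regulator of receptor uptake, on chromosome 5 from 114774677 to 114806200, was at 310.1, 291 and 292 RPM in WT and at 198, 225 and 267 RPM in KO (log2 change -0.38, limma adjusted p = 0.0263). It lost its call when any library other than KO replicate 3 was left out, with limma adjusted p-values of 0.0809, 0.0571 and 0.0581 without WT replicates 1 to 3 and of 0.0549 and 0.0736 without KO replicates 1 and 2, and with the replicate block (0.0531). With the length trend removed the call was kept, at a log2 change of -0.39 (limma adjusted p = 0.00705). Exons of other genes overlap Ankrd37 and Ankrd13a on the other strand.

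Genes with a pleckstrin-homology domain, which binds membrane phosphoinositides, were few and mixed. Plek, the pleckstrin of platelets and leukocytes, on chromosome 11 from 16971206 to 17052381, was at 1.94, 2.81 and 1.697 RPM in WT and at 0.242, 0.4804 and 0.2102 RPM in KO, with a log2 change of -2.48 (limma adjusted p = 0.00114). This was 95 reads in WT and 13 reads in KO, a ratio of 6.88 corrected for depth, with an exact 95% interval of 3.84 to 13.4 that covers counting error only. Plekha4, a regulator of Wnt signalling, on chromosome 7 from 45526330 to 45554229, was also low, at 1.63, 0.766 and 0.848 RPM in WT and 2.42, 4.19 and 3.01 RPM in KO (log2 change 1.52, limma adjusted p = 0.00578). Its WT replicate 1 was nearest to KO. Plekha2, on chromosome 8 from 25039144 to 25102376, was at 189.9, 184 and 188 RPM in WT and at 133, 143 and 151 RPM in KO (log2 change -0.40, limma adjusted p = 0.00914). Exons of other genes overlap Plek and Plekha2 on the other strand. Plek and Itgam are both known from blood cells and both were lower in KO at levels of a few RPM. Since no immune marker of the fixed list was in the table, which cells gave these reads was not tested.

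The genes that share only the letters of the rule were both lower. Ank, on chromosome 15 from 27466677 to 27594909, was at 266, 265 and 270.0 RPM in WT and at 159, 159 and 178 RPM in KO, with means of 267 ± 2.75 and 166 ± 11.1 RPM (SD, n = 3 each) and a log2 change of -0.69 (standard error 0.10, limma adjusted p = 0.00206). Its WT libraries lay within a few RPM of each other, and the annotated Mir7117 overlaps its exons on the same strand. Sptlc2, which starts sphingolipid synthesis, on chromosome 12 from 87305058 to 87388355, was at 269, 275 and 282 RPM in WT and at 198, 211 and 239 RPM in KO (log2 change -0.35, limma adjusted p = 0.0175), and its call was lost without WT replicate 3 or KO replicate 2 (0.0536 and 0.0596). Without these genes, 15 members were higher and 13 lower.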

How the data were processed

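Poly(A)-selected RNA of 6 organoid libraries (3 WT, 3 KO, grouped by sample title) was sequenced with a directional kit as paired-end reads. According to the submitters' processing notes and the methods of the study, the authors trimmed reads with Trim Galore (0.4.2), mapped them to GRCm38 with HISAT2 (2.0.3) and quantified unique reads over exons of merged transcripts in SeqMonk. The deposited values are RPM, scaled by the authors to the reads of each library, and the table lists only genes that passed their DESeq2 test. The deposited FDR column, an adjusted p-value, was used in no result. In each library 100% of values were whole multiples of a step (within 0.05 steps), taken as 1 read; a floor of 3 reads is 0.192 to 0.242 RPM. The steps were not accepted as recovered counts, so no count test was run. Read numbers, the interval of Plek and the chi-square below treat each step as a read.

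Members and lists were chosen with earlier results of these data known. limma (3.58.1, R 4.3.3) was fitted to log2(RPM + 0.1) over the 1420 listed genes with genotype as its sole term. Its p-values are two-sided, were adjusted by Benjamini and Hochberg's method for all listed genes and called under 0.05, and the code was tested on simulated data. In all 6 pairs of libraries of a group, counting noise was exceeded (chi-square per gene of 15.5 or more). Exon length is the union of exons in GENCODE M21, matched by symbol, position and strand (1396 genes, 30 of 30 members). Members were named by a rule: up to 4 per family with the largest log2 change and a mean of at least 1 RPM, the highest per kilobase of each family, and genes at the floor. The values of 1 member, which the counts include, are not reported here. The alternatives were a replicate block, leaving out each library, centring on the library median, a pseudocount of 1, removal of a loess trend with exon length (span 0.75), keeping genes with a mean of 18.5 RPM or more, an intensity trend and a threshold of 0.01. The loess trend was fitted in each library to the listed genes with an exon length alone. The GC box (GGGCGG), the AP-1 motif (TGANTCA), the NF-Y motif (CCAAT), the cell cycle homology region (TTTGAA), the TATA box (TATAAA) and the CArG box were searched on both strands of the promoter windows. A CArG box can contain the NF-Y motif or the TATA box. The TATA box was held by 3 of 24 members and 15.7% of all genes.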

Additional observations from a re-analysis of the deposited data

How the results depend on the processing

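With the replicate number of the titles as a block, 28 of 30 members had a limma adjusted p-value under 0.05 (95.1% of the list). Dst and Ankrd13a were lost. The numbers were not taken as pairs, since WT and KO libraries of one number deviated from their group means with correlations of only -0.08, 0.09 and 0.06. Leaving out each library left 25 to 30 members past the threshold (80.1% to 98.9% of the list), 8 to 12 with a log2 change of at least 1, 15 higher in KO and a median log2 change of 0.08 to 0.13. Without KO replicate 1, or with a pseudocount of 1, 2 of the 4 falls of at least 1 remained, Plek and Tubb2b. A threshold of 0.01 left 21 of 30 members (59.5% of the list). The median of the members was 0.12, the midpoint of 15 rises and 15 falls, and says little: it was 0.026 with centred libraries (a shift of -0.09 in all genes), -0.12 with the length trend removed and -0.39 under the filter on the mean. The filter tested 20 members, the cause of its lower numbers, with 8 higher and 2 changed by at least 1. Of 300 values of single members under the settings run for them, 274 kept their side of the threshold, 26 lost it and 0 changed direction; 4 of the losses came with the length trend removed (26 members called, 84.2% of the list) and 20 with a library left out. Smarcad1 kept its direction and call in the settings run for it, which did not include the filter, the intensity trend or the stricter threshold. Members with few reads, such as Krt4 and Plek, are limited by depth. The list was selected on these libraries, so none of this shows stability of its calls.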

Other observations

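In these genes the spread among KO libraries exceeded that among WT libraries, with a median coefficient of variation of 17.7% against 11.1%, where all listed genes had 13.4% and 8.34%. KO replicate 1 was highest and KO replicate 3 lowest in 7 members, among them Krt18, Krt23, Cldn4, Lamb2, Acta1 and Kif3a, all higher in KO. The opposite order held in 11 members, of which Lamb1 and Itga1 were higher in KO and Dst, Kif14, Kif4, Tubb2b, Actr2, Ankrd13a, Plekha2, Ank and Sptlc2 lower. In the whole list these orders were seen in 366 and 525 of 1420 genes. Among the WT libraries, the log2 ratio of replicate 1 to replicate 3 went with exon length by a rank correlation (Spearman) of 0.28 across the 30 members and of 0.25 across 1396 listed genes, opposite in sign to the -0.51 and -0.46 of KO. Both are descriptions of single library pairs.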
